A study of Mus musculus with 69 samples.

Results

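TKOM organoids grown in suspension were compared with TKOM organoids grown in Matrigel, across every gene named in their count table. The comparison rests on 6 of the 69 libraries in the series, 3 of TKOM organoids in Matrigel and 3 of TKOM organoids in suspension at day 30, which make up a table of their own, and each library was put in its group by its label. All libraries are bulk sequencing of polyA RNA from organoids of mouse prostate, small epithelial structures kept in culture. The question in the series title is the role of extracellular matrix in the lineage plasticity of prostate cancer, by way of YAP and TEAD.

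Matrigel is a gel of basement membrane proteins, rich in laminin and collagen IV, into which organoids are usually embedded; suspension culture leaves the cells without that surrounding gel. The labels name the organoids TKOM in both groups and do not state which genes were altered, the strain or age of the donor mice, or whether the 3 replicates of a group are separate cultures. They give day 30 for suspension and no day for Matrigel, so time in culture and the matrix cannot be told apart. The p-values therefore rest on differences among single libraries of a group, and those may be technical.

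YAP and its paralogue TAZ are coactivators that gather in the nucleus of spread, matrix-attached cells and bind DNA through the TEAD factors, while the LATS kinases of the Hippo pathway keep them in the cytoplasm. Prostate epithelium has basal cells, which rest on the basement membrane through hemidesmosomes and express p63, Krt5 and Krt14, and luminal cells, which line the lumen and secrete. Neuroendocrine prostate cancer is known for proneural and endocrine factors such as INSM1 and FOXA2.

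Library totals ran from 31459485 to 40457128 counts over the 16893 gene names, of which 15733 had enough counts to be tested. Levels are given as CPM, counts scaled to library size with TMM factors, and a gene rose or fell where the edgeR quasi-likelihood adjusted p was under 0.05. A change beyond 2-fold also had to pass edgeR's test against a 2-fold difference. Log2 CPM correlated at 0.992 to 0.994 between libraries of a group and at 0.861 to 0.865 between the groups, across genes. The mitochondrial share of counts was 1.78% ± 0.0577 (SD, n = 3) in Matrigel and 1.23% ± 0.00823 in suspension, without overlap (2-sided exact permutation p = 0.1, the smallest that 3 against 3 libraries allow). Genes of that share did not all fall, as given below with metabolism.

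The epithelial label was checked first. The epithelial adhesion genes Epcam and Cdh1 were abundant in every library: Epcam was 584, 562 and 581 CPM in Matrigel and 369.9, 369 and 367 CPM in suspension, and Cdh1 was 1023, 1041 and 1023 CPM in Matrigel and 807, 791 and 803 CPM in suspension. The simple epithelial keratin Krt8 was 455, 454 and 427 CPM in Matrigel and 403, 406 and 393 CPM in suspension. All 3 genes were lower in suspension, 1.56-fold for Epcam, 1.29-fold for Cdh1 and 1.11-fold for Krt8, with no overlap between the groups.

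Genes often altered in prostate cancer models were compared next, since the labels do not give the genotype. The tumour suppressor gene Trp53 was 30.2, 29.01 and 29.4 CPM in Matrigel and 11.4, 10.6 and 11.1 CPM in suspension. Rb1, whose protein restrains the cell cycle, was 24.1, 24.9 and 27.4 CPM in Matrigel and 8.27, 7.97 and 9.29 CPM in suspension. Both were lower in every suspension library, with log2 fold changes of -1.42 ± 0.060 (SE) and -1.58 ± 0.077 (SE) (edgeR adjusted p = 6.91e-13 and 4.42e-12). The oncogene Myc was 1009, 999 and 937 CPM in Matrigel and 759, 757 and 759.8 CPM in suspension, so it stayed among abundant genes in both groups. A deletion of single exons cannot be read from one count per gene.

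Most genes differed between the groups, and large changes were more often decreases. In suspension 6021 of 15733 genes rose (38.3%) and 6119 fell (38.9%), and 12362 genes (78.6%) had no overlap between the 3 libraries of each group. Beyond 2-fold, 1123 genes rose (7.14%) and 2094 fell (13.3%). The log2 fold change had a median of -0.0044 over all genes tested, with quartiles of -0.56 and 0.48. There were 58 tested genes with 0 counts in all suspension libraries and a mean of at least 1 CPM in Matrigel, and 25 with 0 counts in all Matrigel libraries and at least 1 CPM in suspension. In bulk libraries, fewer cells of a type and less RNA per cell cannot be told apart.

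**Figure D1:**
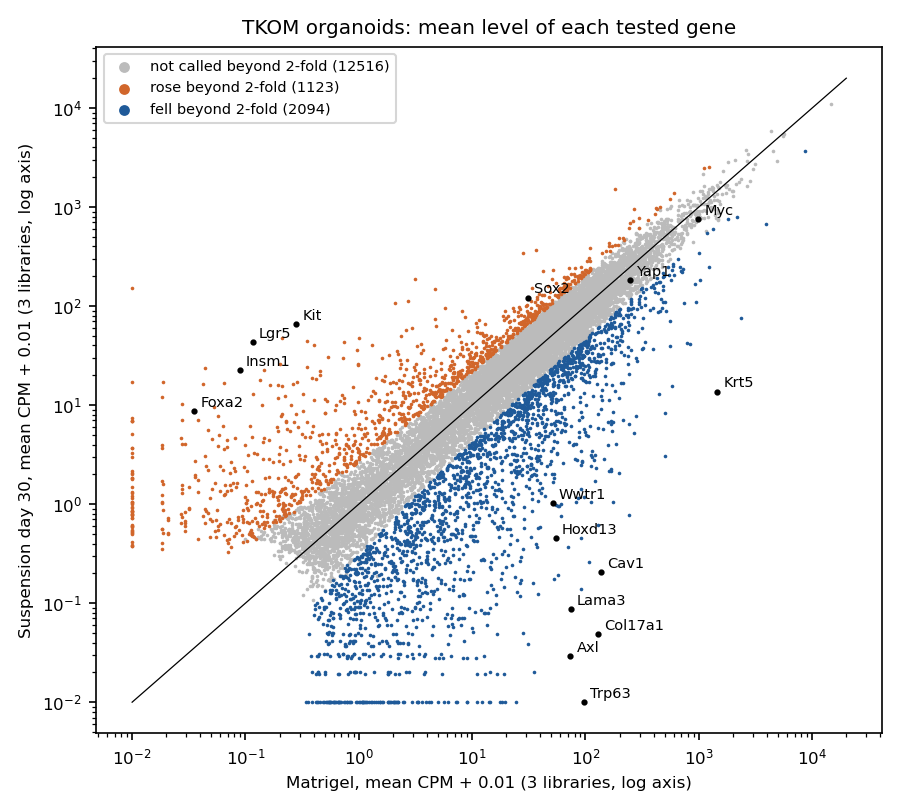
Mean CPM of each of the 15733 tested genes in Matrigel (x axis) and in suspension at day 30 (y axis), both on log axes after adding 0.01. Orange points are the 1123 genes that rose beyond 2-fold and blue points the 2094 that fell beyond 2-fold; Trp63 lies at the bottom edge, with 0 counts in suspension.

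RNA of the coactivator TAZ fell about 50.2-fold in suspension, whereas RNA of YAP fell about 1.36-fold. Wwtr1, which encodes TAZ, was 53.7, 50.3 and 49.8 CPM in Matrigel and 1.27, 0.903 and 0.842 CPM in suspension. Yap1 (mm10 chromosome 9, 7931999 to 8004596) was 248, 245 and 247 CPM in Matrigel and 179, 181 and 186 CPM in suspension. Both groups were apart for each gene, and the log2 fold change was -5.65 ± 0.10 (SE) for Wwtr1 and -0.44 ± 0.027 (SE) for Yap1 (edgeR adjusted p = 3.02e-18 and 9.71e-11). Per kilobase of exon, Yap1 was at 26.6 CPM in Matrigel and 19.7 in suspension, and Wwtr1 at 10.7 and 0.211.

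The DNA-binding TEAD partners changed in opposite directions. Tead1 was 88.1, 92.2 and 86.7 CPM in Matrigel and 38.2, 36.02 and 35.9 CPM in suspension, and Tead2 was 41.8, 40.9 and 38.6 CPM in Matrigel and 108, 111 and 108 CPM in suspension. Tead1 fell and Tead2 rose, both beyond 2-fold and with no overlap between groups. Tead3 fell from 22.6 CPM ± 1.10 (SD, n = 3) in Matrigel to 11.3 CPM ± 0.670 and Tead4 from 29.2 CPM ± 0.860 to 15.7 CPM ± 1.44, neither beyond 2-fold. Per kilobase of exon, the member with the highest level was Tead2 in both groups, at 8.44 CPM in Matrigel and 22.8 in suspension, and Tead4 was close behind it in Matrigel, at 8.13. Vgll4, which competes with YAP for TEAD, rose from 69.0 to 105 CPM.

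Of 18 tested Hippo kinases and regulators, 12 fell and 3 rose, with a median log2 fold change of -0.36. Amotl1, an angiomotin family member that binds YAP, fell from 160.2 CPM ± 7.52 (SD, n = 3) in Matrigel to 11.4 CPM ± 0.484. Ptpn14, a phosphatase that holds YAP in the cytoplasm and is itself a YAP target, was 143, 143 and 139 CPM in Matrigel and 5.86, 5.98 and 5.21 CPM in suspension. The kinase gene Lats1 moved the other way, from 100.4 CPM ± 1.71 to 138 CPM ± 6.71, or 0.46 ± 0.036 (SE) as a log2 fold change.

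Known targets of YAP and TEAD fell as a group of genes in suspension. Of 20 tested targets, 17 fell, 15 of them beyond 2-fold, 2 rose and 1 was not called, against 38.9% and 13.3% of all genes that fell by the same rules. Their median log2 fold change was -2.68. Axl, a receptor tyrosine kinase, was 76.5, 74.2 and 69.8 CPM in Matrigel and 0.0271, 0 and 0.0312 CPM in suspension. Ccn2, a secreted matricellular protein widely used as a YAP readout, was 19.2, 19.01 and 18.8 CPM in Matrigel and 0.190, 0.0311 and 0.187 CPM in suspension, and its relative Ccn1 was 38.97, 37.2 and 34.4 CPM in Matrigel and 1.60, 2.24 and 2.00 CPM in suspension. The lowest Matrigel library was many times above the highest suspension library for each of these genes. Ajuba, a LIM protein that inhibits LATS kinases, was 134, 139 and 133 CPM in Matrigel and 12.6, 10.96 and 13.4 CPM in suspension.

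Further targets spanned membrane, cytoskeletal and secreted proteins. Myof, a membrane repair protein, fell from 244 CPM ± 9.08 (SD, n = 3) in Matrigel to 6.51 CPM ± 0.193, and Rbms3, an RNA-binding protein, from 10.1 CPM ± 0.248 to 0.0416 CPM ± 0.0477. Igfbp3, which binds insulin-like growth factors, fell from 17.3 CPM ± 0.246 to 1.40 CPM ± 0.164, and the coagulation receptor gene F3 from 129.8 CPM ± 4.40 to 33.02 CPM ± 2.02. Nuak2, a kinase, and Dlc1, a GTPase-activating protein, were the members that rose, with log2 fold changes of 0.62 ± 0.074 (SE) and 0.72 ± 0.14 (SE). Gadd45b, a stress response gene, was not called, at 66.9 CPM ± 2.56 and 64.7 CPM ± 1.89 (edgeR adjusted p = 0.287). Ankrd1 was too low to test, at 0.235 and 0.0208 CPM.

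Promoters of these targets were searched for the TEAD core motif, GGAATG, which reads CATTCC on the other strand. RefSeq windows of 300 bases (build GRCm38.p6, from 250 before to 50 after each start) were matched for 16 of the 22 targets in the table, giving 18 windows. The motif was in 8 of the 18 windows (44.4%) and in 4817 of 32851 windows of all genes (14.7%). It was in 1 of 9 windows of basal genes and in 0 of 16 windows of proneural and neuroendocrine factors, where that count of 0 says only that these letters are not in these windows. Windows of Rbms3, Myof and Igfbp3, targets that also fell beyond 2-fold, hold no match, and that of Ankrd1, too low to test, holds 2. A match describes the sequence and not a bound site. Shown here are the windows of Axl, Ccn1, Ajuba and Ptpn14, which fell strongly and hold the motif, read 5′ to 3′ on the gene's strand with the matches in capitals. They lie at chr7:25788684-25788983 (minus strand) for Axl, chr3:145649936-145650235 (minus strand) for Ccn1, chr14:54577612-54577911 (minus strand) for Ajuba and chr1:189728018-189728317 (plus strand) for Ptpn14.
Axl: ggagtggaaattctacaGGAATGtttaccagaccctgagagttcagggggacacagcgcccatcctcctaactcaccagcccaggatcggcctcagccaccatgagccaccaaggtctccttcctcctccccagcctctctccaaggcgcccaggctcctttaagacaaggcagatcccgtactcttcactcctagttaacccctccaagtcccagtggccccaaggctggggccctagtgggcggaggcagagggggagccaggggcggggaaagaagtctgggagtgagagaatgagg
Ccn1: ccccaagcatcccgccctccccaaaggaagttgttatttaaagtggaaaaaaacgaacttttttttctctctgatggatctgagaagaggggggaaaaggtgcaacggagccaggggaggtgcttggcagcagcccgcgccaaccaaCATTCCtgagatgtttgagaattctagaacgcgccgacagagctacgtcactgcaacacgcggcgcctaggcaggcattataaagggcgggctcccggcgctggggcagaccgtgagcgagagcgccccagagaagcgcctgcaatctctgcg
Ajuba: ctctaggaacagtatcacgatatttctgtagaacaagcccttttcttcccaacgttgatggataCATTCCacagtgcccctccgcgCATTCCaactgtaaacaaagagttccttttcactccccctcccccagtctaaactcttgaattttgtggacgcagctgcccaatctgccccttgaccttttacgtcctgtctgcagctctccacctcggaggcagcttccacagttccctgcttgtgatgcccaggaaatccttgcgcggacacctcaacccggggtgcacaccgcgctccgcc
Ptpn14: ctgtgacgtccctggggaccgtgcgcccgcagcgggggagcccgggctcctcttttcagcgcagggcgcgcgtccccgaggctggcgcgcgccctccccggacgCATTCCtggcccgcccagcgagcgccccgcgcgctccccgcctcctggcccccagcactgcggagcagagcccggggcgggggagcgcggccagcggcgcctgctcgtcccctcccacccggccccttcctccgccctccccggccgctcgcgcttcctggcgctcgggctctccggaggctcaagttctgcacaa

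The Axl match starts -233 bases from the annotated start, the Ccn1 match -103 and the Ptpn14 match -146, where negative positions lie before it. The Ajuba window holds 2 matches, at -186 and -164. For comparison, the AP-1 motif TGANTCA, which reads the same on both strands, was in 1 of the 18 target windows (5.56%) and in 7.81% of all windows.

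AP-1 proteins are dimers of Fos and Jun relatives that often share enhancers with TEAD. Of 11 tested AP-1 genes, 8 fell, 2 rose and 1 was not called, and the median log2 fold change was -0.58. Fosl1 had the lowest log2 fold change of the 11, falling from 4.29 CPM ± 0.385 (SD, n = 3) in Matrigel to 0.430 CPM ± 0.194. Jun fell from 153 to 84.3 CPM and Junb from 146 to 97.7 CPM, both less than 2-fold. Fos rose, from 8.14 CPM ± 0.552 to 11.5 CPM ± 1.79.

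**Figure D2:**
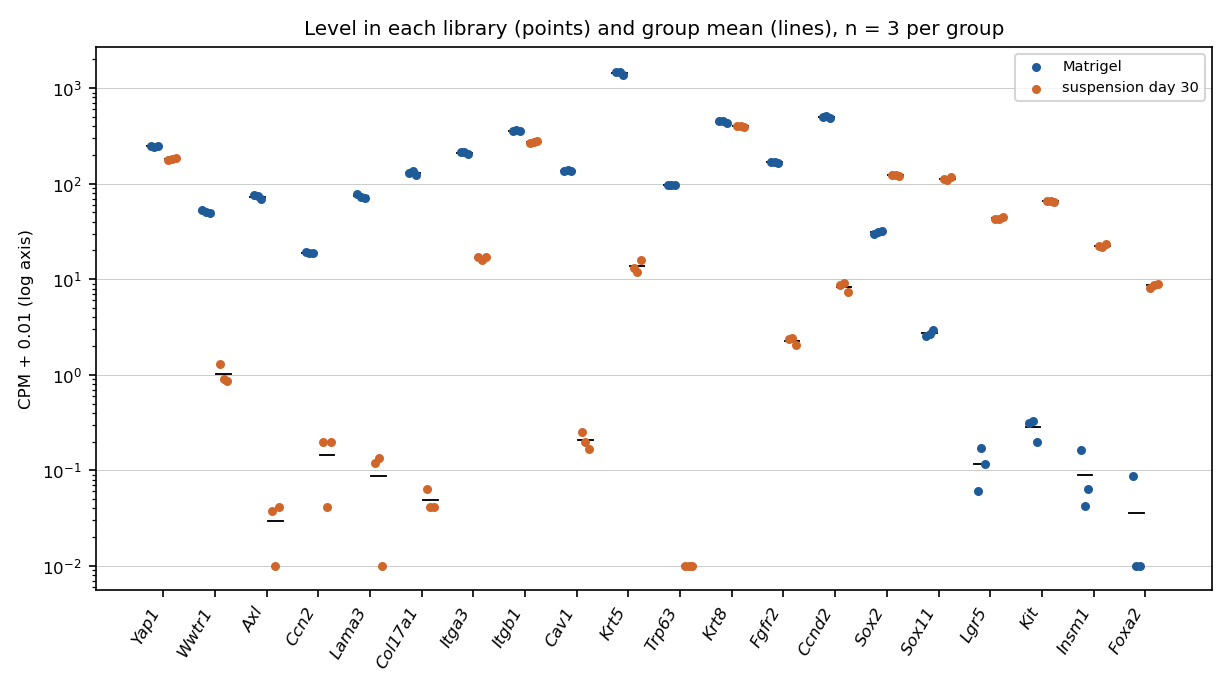
CPM plus 0.01 on a log axis for 20 genes, with 1 point per library (blue, Matrigel; orange, suspension day 30) and a black line at the group mean. Yap1, Itgb1 and Krt8 differ little between groups, whereas Axl, Lama3, Col17a1, Cav1 and Trp63 lie near 0 in suspension and Insm1 and Foxa2 near 0 in Matrigel.

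Genes for the cells' own basement membrane were lower in suspension. All 7 tested laminin chains fell, 6 of them beyond 2-fold, with a median log2 fold change of -2.38. Lama3, the alpha chain of the laminin that anchors basal cells, was 77.4, 73.5 and 70.7 CPM in Matrigel and 0.108, 0.125 and 0 CPM in suspension. Lamb3, its partner beta chain, was 107, 112.5 and 103 CPM in Matrigel and 0.244, 0.249 and 0.250 CPM in suspension. No suspension library came near any Matrigel library for these genes. Chains of other laminins fell less: Lama5 from 177 CPM ± 12.9 (SD, n = 3) in Matrigel to 68.3 CPM ± 2.37, and Lamc1 from 181 CPM ± 7.75 to 77.9 CPM ± 1.06. Per kilobase of exon, Lamc1 was the most abundant chain of the 7 in suspension, at 9.41 CPM, with Lama5 at 6.00.

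Collagens also fell, with exceptions. Of 13 tested chains, 10 fell and 2 rose, all 12 beyond 2-fold, and the median log2 fold change was -6.37. Col17a1, a transmembrane collagen of hemidesmosomes, was 130.1, 136 and 123 CPM in Matrigel and 0.0542, 0.0311 and 0.0312 CPM in suspension, and Col18a1, a basement membrane collagen, was 99.98, 99.7 and 91.1 CPM in Matrigel and 0.976, 1.28 and 1.28 CPM in suspension. The basement membrane chain Col4a1 fell from 8.36 CPM ± 0.576 (SD, n = 3) in Matrigel to 0.0181 CPM ± 0.0313. Col11a1 and Col9a1, chains of cartilage collagens, rose from 0.363 to 4.77 CPM and from 0.0637 to 2.04 CPM.

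Among 15 other matrix proteins tested, 12 fell and 3 rose. Hspg2, which encodes perlecan, was 184, 179 and 162 CPM in Matrigel and 7.21, 6.01 and 6.80 CPM in suspension, and Fn1, which encodes fibronectin, was 21.7, 23.4 and 20.6 CPM in Matrigel and 0.515, 0.342 and 0.593 CPM in suspension. Agrn, which encodes agrin, fell from 202 CPM ± 9.00 (SD, n = 3) in Matrigel to 45.2 CPM ± 1.53. Fras1, a protein that links epithelium to the basement membrane in development, was 2.57, 2.99 and 2.31 CPM in Matrigel and 57.4, 58.0 and 58.3 CPM in suspension, so it was higher in every suspension library. Vcan, the proteoglycan versican, rose from 4.499 CPM ± 0.754 to 29.1 CPM ± 1.21, and Nid2, a nidogen, from 0.0457 to 0.860 CPM while its paralogue Nid1 fell from 8.11 to 0.538 CPM.

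Enzymes that cut matrix fell with the matrix genes, 12 of 14 tested proteases and inhibitors. Mmp7, or matrilysin, was 172, 175 and 176 CPM in Matrigel and 0.515, 1.81 and 0.780 CPM in suspension. Plau, the urokinase that activates plasminogen, fell from 114 CPM ± 3.08 (SD, n = 3) in Matrigel to 3.46 CPM ± 0.414.

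Integrins are the alpha and beta pairs through which cells hold matrix, and the laminin and collagen receptors fell. Of 15 tested, 12 fell (10 beyond 2-fold), 2 rose beyond 2-fold and 1 was not called, with a median log2 fold change of -2.25. Itga2, a collagen receptor chain, was 118, 111.7 and 108 CPM in Matrigel and 1.00, 1.06 and 1.09 CPM in suspension, and Itga3, a laminin receptor chain, was 216, 216 and 205 CPM in Matrigel and 16.98, 15.9 and 17.2 CPM in suspension. Itgb4, the laminin receptor chain of hemidesmosomes, was 175, 176 and 161 CPM in Matrigel and 16.5, 15.3 and 15.9 CPM in suspension, and its partner Itga6 was 237, 233 and 221 CPM in Matrigel and 133, 126 and 130.1 CPM in suspension. Both Itgb4 and Itga6 fell with no overlap, but only Itgb4 beyond 2-fold. Itgb1, the beta chain shared by most matrix integrins, fell by far less, from 359 CPM ± 4.28 (SD, n = 3) in Matrigel to 275 CPM ± 4.90, or -0.38 ± 0.026 (SE) as a log2 fold change. Itga9 and Itgb8 rose, from 0.425 to 2.37 CPM and from 0.360 to 1.23 CPM, where Itgb8 no longer passed beyond 2-fold without suspension replicate 2 (edgeR adjusted p = 0.0528).

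The hemidesmosome, which rivets basal cells to laminin, lost RNA for all 6 tested components, 4 beyond 2-fold. Besides Col17a1 and Itgb4, the plakin genes Dst and Plec fell from 189.6 CPM ± 6.88 (SD, n = 3) in Matrigel to 43.7 CPM ± 3.10 and from 253 CPM ± 7.77 to 93.9 CPM ± 5.20. Of 20 focal adhesion adaptors and kinases, 17 fell (9 beyond 2-fold) and 3 rose, with a median of only -0.62. The kindlin genes moved apart: Fermt1, the epithelial kindlin, fell from 90.6 CPM ± 2.64 to 59.4 CPM ± 2.59, whereas Fermt2 rose from 0.890 CPM ± 0.209 to 8.78 CPM ± 0.446.

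Caveolae are membrane pits built of caveolins and cavins. Cav1 was 136, 138 and 135 CPM in Matrigel and 0.244, 0.187 and 0.156 CPM in suspension, and Cavin1 was 120.3, 124 and 118 CPM in Matrigel and 1.60, 1.43 and 2.12 CPM in suspension. Among 8 tested genes of the structure 7 fell, 5 beyond 2-fold. Cav2 kept more of its RNA than Cav1, falling from 169 CPM ± 4.21 (SD, n = 3) in Matrigel to 33.9 CPM ± 2.31.

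Junctions between cells showed a mixed picture. Of 10 desmosome genes, 9 fell (8 beyond 2-fold), with a median log2 fold change of -1.45: the basal desmoglein Dsg3 was 167, 168 and 168 CPM in Matrigel and 2.06, 1.77 and 2.56 CPM in suspension, and Pkp1 was 559, 565 and 559 CPM in Matrigel and 39.8, 39.3 and 38.9 CPM in suspension. Desmoplakin, encoded by Dsp, fell from 725 CPM ± 21.5 (SD, n = 3) in Matrigel to 237 CPM ± 4.36, and Pkp2 was not called (edgeR adjusted p = 0.0575). Tight junction genes divided evenly, 7 up and 7 down of 15, with a median of -0.067, where 38.3% of all genes rose and 38.9% fell. Cldn10 and Cldn8 rose, from 5.93 CPM ± 0.470 to 45.9 CPM ± 2.41 and from 6.72 CPM ± 0.104 to 18.3 CPM ± 0.594, and Cldn1 and Cldn4 fell, from 24.8 CPM ± 1.41 to 2.02 CPM ± 0.331 and from 712 CPM ± 27.99 to 219 CPM ± 2.16.

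Of 9 tested genes of cadherins, catenins and Epcam, 7 fell (2 beyond 2-fold), 1 rose and 1 was not called, with a median log2 fold change of -0.64. Cdh3, the P-cadherin of basal cells, was 148, 142 and 139.6 CPM in Matrigel and 32.7, 32.9 and 31.9 CPM in suspension, and Cdh13 was 34.5, 33.5 and 32.9 CPM in Matrigel and 0.949, 0.716 and 0.873 CPM in suspension. Cdh2, or N-cadherin, rose but stayed under 1 CPM on average, at 0.858 CPM ± 0.147 (SD, n = 3). Actin cytoskeleton genes and targets of the serum response factor fell in 13 of 15 cases, 6 beyond 2-fold. The actin-binding genes Cnn2 and Tpm2 fell from 119 CPM ± 5.54 to 2.76 CPM ± 0.396 and from 159 CPM ± 3.12 to 3.90 CPM ± 0.479, whereas Actb, the cytoplasmic actin, rose from 1469 to 1588 CPM. In the nuclear lamina, which stiffens the nucleus, Lmna fell from 312 CPM ± 18.8 to 162 CPM ± 1.40 and the B-type lamin Lmnb2 rose from 47.9 CPM ± 1.96 to 123 CPM ± 3.97.

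**Figure D3:**
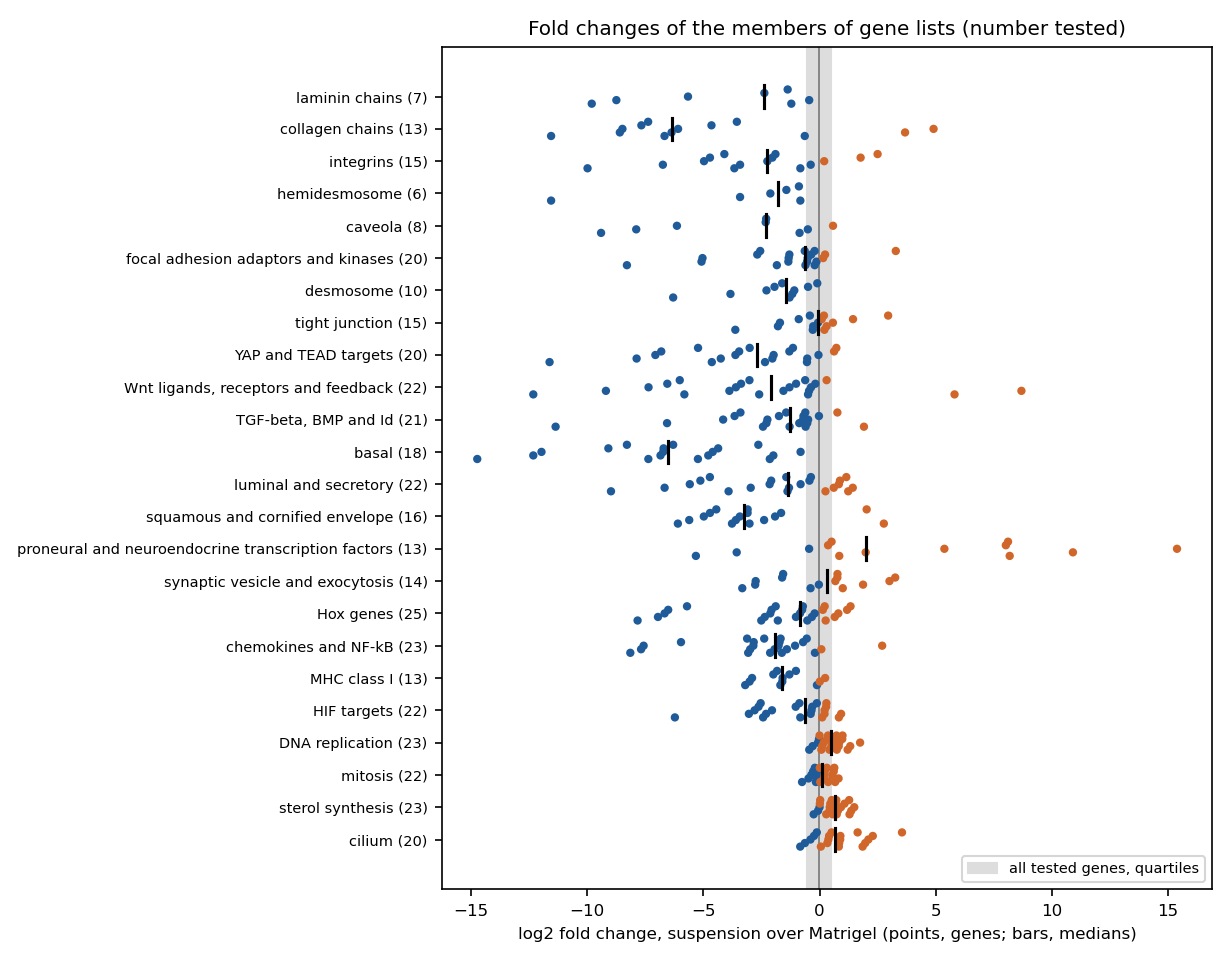
Log2 fold change (x axis, suspension over Matrigel) of every tested member of 24 gene lists, 1 point per gene, with a black bar at the median of the list and a grey band between the quartiles of all 15733 tested genes. Matrix, adhesion, basal and YAP target lists have medians left of the band, the list of proneural and neuroendocrine factors has a median of 1.98, and the tight junction and mitosis lists have medians inside it.

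Ligands and receptors for growth factors changed widely. Fgfr2, the receptor for the FGF ligands that maintain prostate epithelium, was 168, 169 and 166 CPM in Matrigel and 2.33, 2.43 and 2.03 CPM in suspension, and Fgfr3 was 33.8, 33.8 and 31.8 CPM in Matrigel and 2.69, 2.71 and 2.18 CPM in suspension. Egfr fell from 98.9 CPM ± 1.67 (SD, n = 3) in Matrigel to 25.1 CPM ± 0.711. Of 12 EGF receptor and ligand genes tested, 10 fell and 2 rose: the ligand gene Nrg1 went from 5.59 CPM to 0 counts, at least 189.6-fold lower, and Areg from 3.70 to 0.0831 CPM, while Egf rose from 0.283 CPM ± 0.0644 to 6.03 CPM ± 0.235. Etv4, a factor induced by FGF and MAP kinase signals, fell from 8.82 CPM ± 0.961 to 0.380 CPM ± 0.0724, and Spry1, a feedback inhibitor, rose from 11.4 CPM ± 0.393 to 17.1 CPM ± 0.943.

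TGF-beta family genes fell in 17 of 21 cases and rose in 2. Inhba, which encodes the activin A subunit, was 37.9, 35.4 and 32.8 CPM in Matrigel and 0, 0.0311 and 0 CPM in suspension, and Tgfb1 was 38.1, 35.7 and 36.7 CPM in Matrigel and 0.325, 0.529 and 0.312 CPM in suspension. The receptor Tgfbr2 fell from 104 CPM ± 3.01 (SD, n = 3) in Matrigel to 21.3 CPM ± 1.49. Id2 moved against Id1 and Id3. It rose from 19.2 CPM ± 0.342 to 72.3 CPM ± 1.52, while Id1 and Id3, which likewise block helix-loop-helix factors, both fell, Id1 from 1.51 to 0.316 CPM and Id3 from 9.19 to 2.74 CPM.

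Wnt ligands and the feedback gene Axin2 fell, and Lgr5 rose. Wnt10a was 17.1, 19.6 and 18.3 CPM in Matrigel and 0 CPM in all 3 libraries in suspension, at least 614-fold lower in suspension, and Wnt7b was 92.9, 94.0 and 86.6 CPM in Matrigel and 1.46, 1.34 and 1.40 CPM in suspension. Axin2, a general readout of beta-catenin activity, was 16.99, 17.8 and 15.5 CPM in Matrigel and 1.41, 1.65 and 1.06 CPM in suspension. Lgr5, a receptor for R-spondins that marks several epithelial stem cells and is itself a Wnt target, was 0.0508, 0.161 and 0.106 CPM in Matrigel and 42.3, 43.1 and 44.7 CPM in suspension, a log2 fold change of 8.69 ± 0.14 (SE) (edgeR adjusted p = 9.62e-19). In all, 19 of 22 tested genes of the pathway fell (13 beyond 2-fold) and 3 rose, with a median log2 fold change of -2.08.

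Notch receptors are cut on contact with ligands of neighbouring cells and then switch on Hes and Hey repressors, which restrain proneural factors. Notch1 was 112.5, 111.5 and 99.2 CPM in Matrigel and 29.7, 28.9 and 28.98 CPM in suspension, and its ligand Jag1 was 56.5, 58.5 and 55.4 CPM in Matrigel and 14.2, 15.3 and 16.2 CPM in suspension. Notch2 rose slightly, from 53.8 CPM ± 3.85 (SD, n = 3) in Matrigel to 63.4 CPM ± 1.90. Among 5 tested targets 4 fell and 1 rose: Hes1 was 60.7, 63.6 and 66.6 CPM in Matrigel and 22.02, 22.7 and 23.5 CPM in suspension, and Nrarp, a feedback inhibitor, was 38.2, 38.1 and 40.3 CPM in Matrigel and 12.6, 12.6 and 11.5 CPM in suspension. Dtx1, a deltex ubiquitin ligase, was the target that rose, from 0.192 CPM ± 0.0274 to 0.398 CPM ± 0.0608, a call lost when any 1 of the 6 libraries was left out (edgeR adjusted p = 0.0576 to 0.122). Hes6, which antagonises Hes1, rose from 57.9 CPM ± 3.56 to 104 CPM ± 2.02. Lfng and Mfng, glycosyltransferases that tune the response of Notch to its ligands, rose from 7.72 CPM ± 0.674 to 50.3 CPM ± 1.63 and from 0.888 CPM ± 0.271 to 4.93 CPM ± 0.135. The non-canonical ligand gene Dner had 0 counts in Matrigel and 1.81 CPM ± 0.210 in suspension, at least 65.7-fold higher. Dll3, a Notch antagonist of neuroendocrine cancers, was too low to test, at 0.0280 and 0.385 CPM.

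Basal genes fell to low levels in suspension. All 18 tested basal markers fell, 17 beyond 2-fold, and their median log2 fold change was -6.51. Trp63 (mm10 chromosome 16, 25683763 to 25892102), the p63 gene that maintains basal cells, was 97.7, 96.9 and 97.5 CPM in Matrigel and 0 CPM in all 3 libraries in suspension, at least 3281-fold lower. Krt5 was 1489, 1479 and 1377 CPM in Matrigel and 13.2, 11.99 and 15.8 CPM in suspension, Krt14 was 609, 593 and 549 CPM in Matrigel and 14.9, 15.5 and 16.2 CPM in suspension, and Krt15 was 521, 509 and 486 CPM in Matrigel and 3.28, 2.90 and 2.96 CPM in suspension. The summed level of the 18 markers was 3568 to 3839 CPM in the Matrigel libraries and 194.7 to 200.9 CPM in the suspension libraries. Tfap2c, a regulator of epidermal and basal programmes, fell from 31.7 CPM ± 1.56 (SD, n = 3) in Matrigel to 2.99 CPM ± 0.222.

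Simple epithelial keratins fell much less, although all 6 tested did, with a median log2 fold change of -0.93. Krt8 differed by -0.15 ± 0.029 (SE), and Krt18 went down from 316 CPM ± 13.6 (SD, n = 3) in Matrigel to 194 CPM ± 2.90 in suspension. Luminal genes fell more often than they rose: 15 of 22 tested luminal and secretory genes fell (12 beyond 2-fold) and 7 rose (2 beyond 2-fold). The surface marker Ly6a, or Sca-1, was 454, 441 and 449 CPM in Matrigel and 11.9, 13.5 and 13.1 CPM in suspension, lower in every suspension library. Ppp1r1b and Ltf, which encodes lactoferrin, rose beyond 2-fold, from 11.7 CPM ± 0.276 to 31.4 CPM ± 1.99 and from 9.11 CPM ± 0.661 to 21.3 CPM ± 1.88, the latter not beyond 2-fold by DESeq2 (adjusted p = 0.139). Cd24a rose from 571 CPM ± 10.01 to 1015 CPM ± 7.43.

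Among 13 tested genes of steroid receptors and their targets, 11 fell (6 beyond 2-fold) and 2 rose, with a median log2 fold change of -1.08. Steap4, a metalloreductase, and Zbtb16, a zinc finger factor, fell from 21.7 CPM ± 1.14 to 0.386 CPM ± 0.0785 and from 5.51 CPM ± 0.331 to 0.524 CPM ± 0.248. Nr3c2, the mineralocorticoid receptor, was 1 of the 2 that rose, at 8.28, 8.17 and 7.48 CPM in Matrigel and 42.2, 43.9 and 43.8 CPM in suspension. Foxa1, a pioneer factor that opens chromatin, rose from 211 CPM ± 3.58 (SD, n = 3) in Matrigel to 322 CPM ± 3.97.

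Squamous genes fell as well, 14 of 16 tested and all 14 beyond 2-fold. Ivl, the involucrin of the cornified envelope, fell from 3.86 CPM ± 0.332 (SD, n = 3) in Matrigel to 0.119 CPM ± 0.0324, and Sprr1a from 242 CPM ± 3.89 to 64.1 CPM ± 0.602; Sprr genes are close copies whose reads can be split by counting. Klk10 and Tgm3 rose, from 0.858 to 5.81 CPM and from 0.305 to 1.28 CPM.

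Proneural and neuroendocrine transcription factors rose in suspension more often than they fell. Of 13 tested, 8 rose (7 beyond 2-fold), 2 fell and 3 were not called, against 38.3% of all genes that rose and 7.14% that rose beyond 2-fold. The median log2 fold change of the 13 was 1.98, the value of Sox2. Sox2 and Sox11, given again below with the Sox factors, and Hes6, given above with Notch, are among the 13. Insm1, a zinc finger factor of endocrine cells, was 0.152, 0.0322 and 0.0530 CPM in Matrigel and 22.1, 21.9 and 23.2 CPM in suspension, and Foxa2, a forkhead factor of endoderm and neuroendocrine tumours, was 0.0762, 0 and 0 CPM in Matrigel and 8.16, 8.78 and 8.98 CPM in suspension. Prox1, a homeobox factor, was 0 CPM in all 3 libraries in Matrigel and 5.97, 7.29 and 7.33 CPM in suspension. These genes were at or near 0 in every Matrigel library and present in every suspension library. Isl1, a LIM homeobox factor of neurons and islets, moved against the majority, from 4.499 CPM ± 0.407 (SD, n = 3) in Matrigel to 0.114 CPM ± 0.109, as did Ascl2, from 1.92 CPM ± 0.268 to 0.160 CPM ± 0.0808.

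Of 11 tested Sox factors, 6 fell (3 beyond 2-fold), 4 rose (3 beyond 2-fold) and 1 was not called, with a median log2 fold change of -0.38. Sox2, a stem cell and neural progenitor factor, was 30.02, 30.97 and 31.6 CPM in Matrigel and 124, 123 and 119 CPM in suspension, and Sox11, a factor of immature neurons, was 2.57, 2.67 and 2.94 CPM in Matrigel and 112.2, 109.9 and 117 CPM in suspension. Sox1, an early neural factor, had 0 counts in Matrigel and 3.29 CPM ± 0.318 (SD, n = 3) in suspension, at least 119-fold higher. Sox9, a factor of prostate progenitors, was 127, 125 and 126 CPM in Matrigel and 29.2, 24.7 and 29.4 CPM in suspension, so it fell, and Sox15 fell from 18.2 CPM ± 1.48 to 0.189 CPM ± 0.0523. Per kilobase of exon, Sox9 was above Sox2 in Matrigel, at 30.5 and 15.01 CPM, and below it in suspension, at 6.71 and 59.3 CPM.

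Genes that store and release hormones and transmitters moved in both directions. Of 14 tested genes of synaptic vesicles and exocytosis, 7 rose, 6 fell and 1 was not called, with a median log2 fold change of 0.32. These counts are near the shares of all genes, 38.3% that rose and 38.9% that fell. Sytl4, a granule docking protein, rose from 2.51 CPM ± 0.142 (SD, n = 3) in Matrigel to 20.1 CPM ± 1.29, and Cplx2, a complexin, from 0.328 CPM ± 0.171 to 3.05 CPM ± 0.473. Rab3d, a secretory granule GTPase, fell from 57.6 CPM ± 2.47 to 8.41 CPM ± 0.660. Only 3 genes of granins and hormone processing were tested, of which 2 fell and 1 rose. Cpe, the carboxypeptidase that trims peptide hormones, was 198, 197 and 201 CPM in Matrigel and 10.4, 12.2 and 12.8 CPM in suspension, lower in every suspension library. Grp, gastrin-releasing peptide, had 0 counts in Matrigel and reached 1.14 CPM ± 0.165. Chga, Syp and several other granin and vesicle genes were not analysed here.

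Of 9 tested genes of REST and neuronal RNA regulators, 5 rose (2 beyond 2-fold), 3 fell (1 beyond 2-fold) and 1 was not called, with a median log2 fold change of 0.11. Elavl3 and Elavl4 rose from 0.0472 to 0.587 CPM and from 0.0410 to 0.660 CPM. Among 10 tested axonal cytoskeleton and adhesion genes, 5 fell, 3 rose and 2 were not called, at a median log2 fold change of -0.14. These counts are near the shares of all genes, 38.9% that fell and 38.3% that rose. The adhesion genes L1cam and Cadm1 fell from 24.7 CPM ± 1.26 to 13.5 CPM ± 0.243 and from 90.8 CPM ± 1.02 to 63.6 CPM ± 2.93. Tubb3, neuronal tubulin, rose from 0.219 CPM ± 0.0863 (SD, n = 3) in Matrigel to 1.25 CPM ± 0.0808, and Uchl1 from 0.0593 CPM ± 0.103 to 4.47 CPM ± 0.304. Celf4, a neuronal splicing factor, fell from 8.28 CPM ± 0.239 to 0.880 CPM ± 0.0330. Rest, the repressor of neuronal genes, was 65.8, 68.2 and 63.1 CPM in Matrigel and 51.4, 50.9 and 53.2 CPM in suspension, a fall of less than 2-fold.

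Levels of the same genes in other organoids of the series put the suspension values on a scale; the tables were scaled separately, so these levels are set side by side without a test. Insm1 averaged 434, 732 and 447 CPM in 3 lines labelled NEPC-1 to NEPC-3, in that order, against 22.4 CPM in TKOM suspension, and Foxa2 252, 280.0 and 299 CPM, against 8.64 CPM. In PRAD organoids on COMBO at day 42, Insm1 averaged 615 CPM and Foxa2 187 CPM. Sox2, at 122 CPM in TKOM suspension, averaged 105 CPM in the same COMBO organoids and 164 to 285 CPM in the lines. In the WT, PtP, TKO and PRAD organoids on DMSO at day 8, Sox2 averaged 30.2 to 60.4 CPM. Yap1, still 182 CPM in TKOM suspension, averaged 0.521 to 0.898 CPM in the lines, and Wwtr1 0.0449 to 0.101 CPM. Myc averaged 1.43 to 4.62 CPM in the lines and Rb1 116 to 190.0 CPM, against 759 and 8.51 CPM in TKOM suspension. TKOM Matrigel averaged 982 CPM for Myc and 25.5 CPM for Rb1. Across the WT, PtP, TKO and PRAD organoids on DMSO at day 8, Myc averaged 78.1 to 404 CPM and Rb1 20.3 to 23.2 CPM. The labels give no day for the NEPC lines. Label, agents and day all differ between these groups and TKOM organoids, and cannot be told apart.

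**Figure D4:**
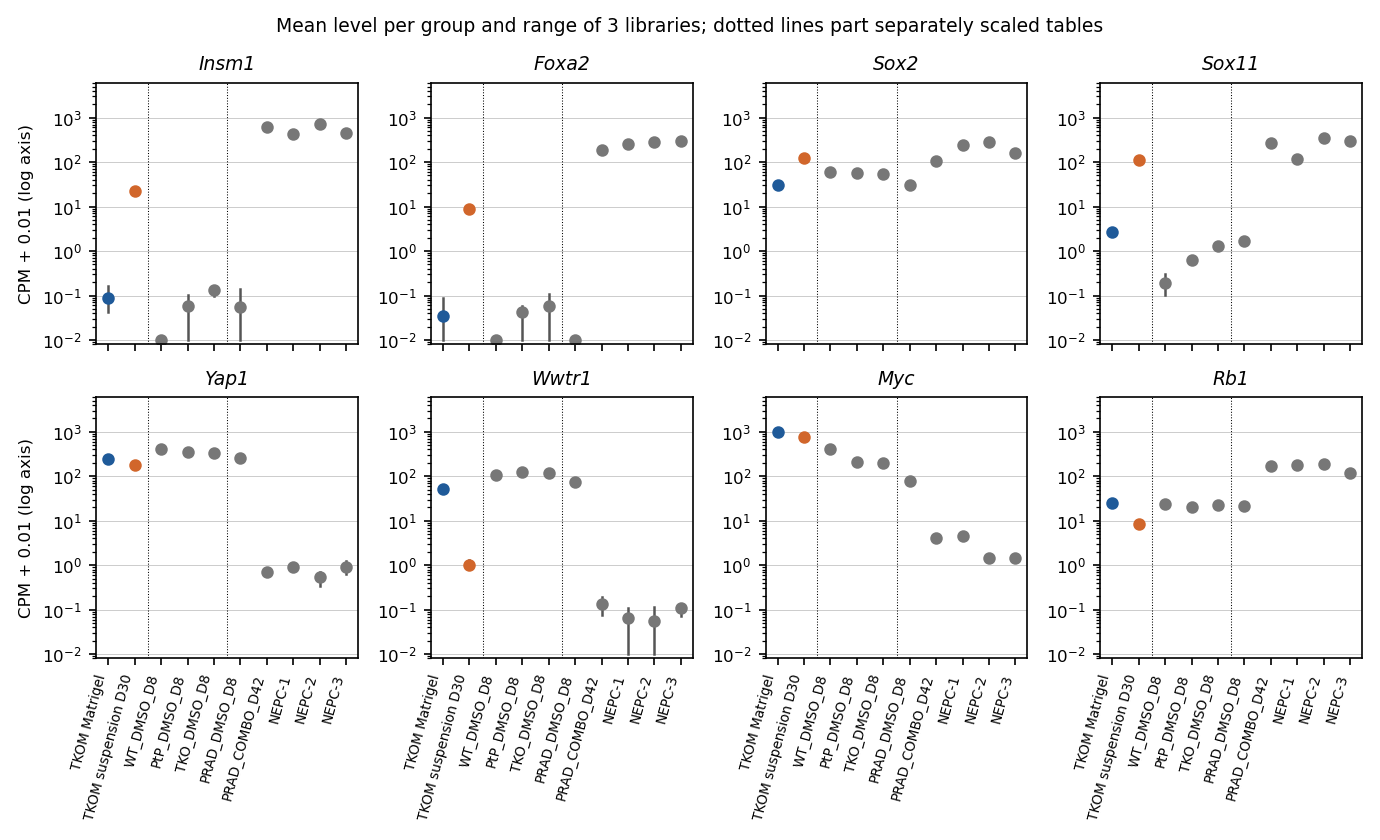
CPM plus 0.01 on log axes for 8 genes in TKOM organoids and in groups of the other tables, with a point at the mean and a line over the range of 3 libraries; dotted lines part tables that were scaled separately. In TKOM suspension, Insm1 and Foxa2 lie between the DMSO organoids, near 0, and the NEPC lines, while Yap1 and Myc lie far above those lines.

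Among abundant genes with the largest increases, several are not classical neuroendocrine markers. Kit, the stem cell factor receptor, was 0.305, 0.322 and 0.186 CPM in Matrigel and 65.7, 66.3 and 64.1 CPM in suspension, and its ligand gene Kitl was 26.95, 27.95 and 29.8 CPM in Matrigel and 346, 339 and 357 CPM in suspension, so receptor and ligand rose together. Lin28b, an inhibitor of let-7 maturation in embryonic and cancer cells, was 0.584, 0.386 and 0.212 CPM in Matrigel and 40.1, 42.2 and 39.9 CPM in suspension. Scaled separately and not tested, Kit averaged 211 to 252 CPM in the NEPC lines and 187 CPM in PRAD organoids on COMBO at day 42. In PRAD DMSO organoids at day 8 Kit averaged 5.31 CPM. Lin28b averaged 0.129 to 13.5 CPM in the lines and 1.36 CPM in the COMBO organoids. Kcnh3, a potassium channel, rose from 0.0339 CPM ± 0.0587 (SD, n = 3) in Matrigel to 23.7 CPM ± 0.921. Adcy1, a calcium-stimulated adenylyl cyclase, rose from 0.202 CPM ± 0.110 to 47.6 CPM ± 1.28, and Hepacam2 from 0.136 CPM ± 0.0453 to 22.5 CPM ± 0.853. The developmental factors Zic5 and Tbx1 rose from 0.0542 to 16.8 CPM and from 0.125 to 17.8 CPM. Pclo, a presynaptic scaffold protein, rose from 0.155 CPM ± 0.0921 to 16.1 CPM ± 1.01, and the serine protease gene Htra4 from 0 counts to 17.2 CPM ± 0.691.

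At the other end, Cd109, a surface protein that binds TGF-beta, was 92.3, 90.4 and 92.2 CPM in Matrigel and 0.108, 0.0311 and 0.250 CPM in suspension. Phldb2, which ties microtubules to integrin adhesions, fell from 31.3 CPM ± 1.01 (SD, n = 3) in Matrigel to 0.0285 CPM ± 0.0272, and the mesenchymal factor Twist2 from 16.5 CPM ± 0.724 to 0.00904 CPM ± 0.0157. Kcnj15, a potassium channel, and Defb1, an antimicrobial peptide of epithelia, reached 0 counts from 24.6 and 17.4 CPM, at least 827-fold and 587-fold lower. Cd44, an adhesion receptor for hyaluronan, was 265, 273 and 266 CPM in Matrigel and 5.10, 5.35 and 5.08 CPM in suspension. Klf5, a factor of prostate basal and luminal progenitors, fell from 199 CPM ± 1.52 to 40.1 CPM ± 0.431, and Klf2 was the Kruppel-like factor that rose, from 1.27 CPM ± 0.0498 to 12.3 CPM ± 0.637.

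Hox genes, which record position along the body and the urogenital tract, divided by cluster. Of 25 tested, 15 fell, 11 of them beyond 2-fold, and 6 rose. All 8 tested Hoxb genes fell, 6 beyond 2-fold, and 5 of 6 Hoxd genes fell, all 5 beyond 2-fold. In the Hoxa cluster 6 of 11 rose and 2 fell, none beyond 2-fold in either direction. Hoxd13, a posterior gene of the urogenital sinus, was 55.4, 53.6 and 54.2 CPM in Matrigel and 0.271, 0.560 and 0.499 CPM in suspension, and Hoxb13, a posterior gene of the prostate, was 4.78, 4.503 and 3.87 CPM in Matrigel and 0.0814, 0.0311 and 0 CPM in suspension. Hoxa13, of the same paralogue group, was 15.4, 17.1 and 17.9 CPM in Matrigel and 14.8, 13.9 and 14.8 CPM in suspension, and its fall lost the call without Matrigel replicate 3 (edgeR adjusted p = 0.0689) or suspension replicate 2 (0.0589). The summed level was 221.9 CPM in Matrigel and 256.6 CPM in suspension for the tested Hoxa genes, 29.8 and 6.30 CPM for Hoxb, and 87.2 and 7.91 CPM for Hoxd. The grouping by cluster was made after the values were seen.

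**Figure D5:**
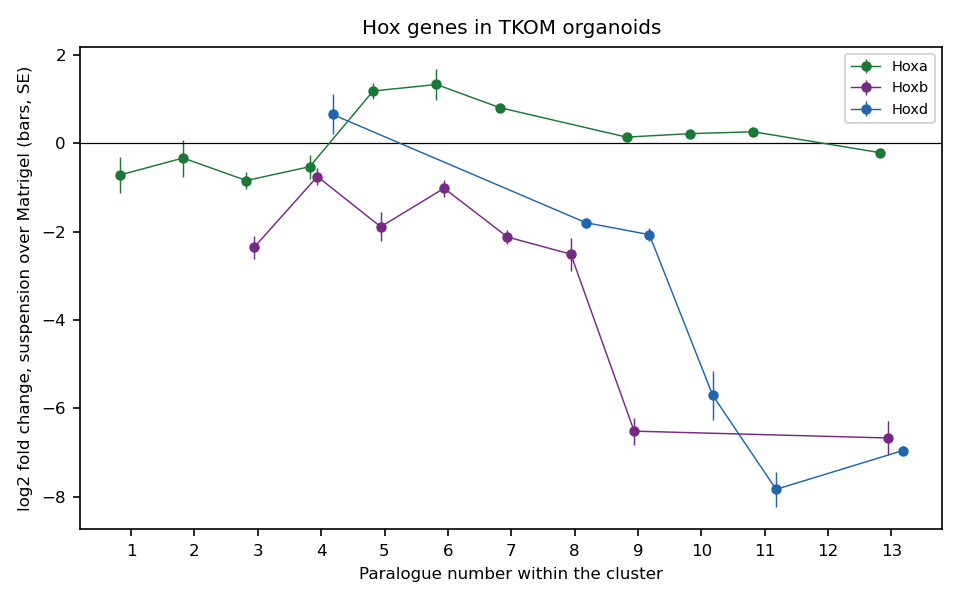
Log2 fold change (y axis, suspension over Matrigel, bars are SE) of the 25 tested Hox genes against their paralogue number (x axis), coloured by cluster. Hoxa genes lie between -0.84 and 1.33, whereas the Hoxb and Hoxd genes of paralogue groups from 9 upwards reach -6.51 to -7.83 apart from Hoxd9 and Hoxd10.

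Of 15 tested G1 cyclins, their kinases and inhibitors, 10 fell (4 beyond 2-fold), 4 rose (1 beyond 2-fold) and 1 was not called. Ccnd2, a D-type cyclin, was 500.2, 513 and 489 CPM in Matrigel and 8.62, 9.03 and 7.39 CPM in suspension, and Ccnd1 was 499, 479.7 and 482 CPM in Matrigel and 111, 111 and 109.9 CPM in suspension. Cdkn1a, the p21 inhibitor of cyclin-dependent kinases, was 122, 129.7 and 122 CPM in Matrigel and 22.1, 22.7 and 24.6 CPM in suspension, and Cdkn1c, the p57 inhibitor, fell from 31.6 CPM ± 1.83 (SD, n = 3) in Matrigel to 4.89 CPM ± 0.565. Ccne2, an E-type cyclin, rose from 28.8 CPM ± 1.07 to 67.4 CPM ± 2.93, and Cdk4 rose from 347 CPM ± 15.4 to 671 CPM ± 6.09, the latter not beyond 2-fold. Of 22 mitotic genes 11 rose and 8 fell, none beyond 2-fold, whereas 16 of 23 DNA replication genes rose and 2 fell. Tyms and Rrm2, which make DNA precursors, rose from 30.2 CPM ± 1.36 to 101 CPM ± 1.78 and from 161 CPM ± 0.782 to 401 CPM ± 1.74.

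Targets of p53 fell in 13 of 18 cases, 7 beyond 2-fold, and rose in 4. Phlda3, an inhibitor of Akt, was 33.9, 35.3 and 35.02 CPM in Matrigel and 0.298, 0.0311 and 0.125 CPM in suspension, and Eda2r, a TNF receptor family member, was 12.8, 13.3 and 12.4 CPM in Matrigel and 0.0814, 0.0623 and 0.0624 CPM in suspension. Bax and Mdm2, likewise p53 targets, rose from 45.7 CPM ± 3.18 (SD, n = 3) in Matrigel to 80.4 CPM ± 3.13 and from 46.4 CPM ± 1.09 to 58.1 CPM ± 3.58. In the Bcl2 family, 8 of 15 tested genes fell (3 beyond 2-fold), 5 rose (1 beyond 2-fold) and 2 were not called. The family's median log2 fold change was -0.10. Its survival gene Bcl2 fell from 13.6 CPM ± 0.344 to 3.11 CPM ± 0.387, and its pro-apoptotic gene Bik rose from 8.77 CPM ± 1.17 to 40.99 CPM ± 1.27. Polycomb and DNA methylation enzymes were mixed: among 19 tested, 9 rose (2 beyond 2-fold), 8 fell and 2 were not called. Their median log2 fold change was -0.077. Over all genes tested, 38.3% rose and 38.9% fell, so the counts of the Bcl2 and polycomb lists say little particular about their members. Bmi1, a polycomb gene, rose from 27.1 CPM ± 0.588 to 65.6 CPM ± 1.21. Ezh2, the catalytic polycomb subunit, rose less than 2-fold, from 73.5 CPM ± 0.919 to 97.1 CPM ± 0.769.

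Inflammatory and antigen presentation genes fell. Of 23 genes of chemokines and NF-kB, 21 fell (17 beyond 2-fold) and 1 rose, with a median log2 fold change of -1.94. Il33, an alarmin cytokine, was 92.3, 88.7 and 95.0 CPM in Matrigel and 0.488, 0.560 and 0.281 CPM in suspension, and Icam1, a leukocyte adhesion molecule, was 63.6, 58.4 and 54.6 CPM in Matrigel and 0.922, 0.841 and 1.06 CPM in suspension. Relb, an NF-kB subunit, fell from 22.2 CPM ± 1.72 (SD, n = 3) in Matrigel to 2.56 CPM ± 0.380, and Saa3 was the member that rose, from 0.757 CPM ± 0.131 to 4.96 CPM ± 0.153. For MHC class I, 11 of 13 genes fell, 9 beyond 2-fold: B2m, the common light chain, was 179, 184 and 185 CPM in Matrigel and 61.7, 61.4 and 57.0 CPM in suspension, and Tap1, the peptide transporter, fell from 15.7 CPM ± 1.34 to 2.09 CPM ± 0.164. The heavy chains H2-K1 and H2-D1, related genes between which reads of shared sequence can be split, fell from 426 CPM ± 16.9 to 394 CPM ± 1.82 and from 344 CPM ± 15.7 to 169.9 CPM ± 1.34. Interferon response genes fell in 16 of 25 cases, 6 beyond 2-fold, and rose in 3.

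Metabolic genes changed by pathway. Among 22 targets of the hypoxia factor HIF, 15 fell (8 beyond 2-fold) and 7 rose, none beyond 2-fold. Car9, a carbonic anhydrase, was 160.1, 165 and 159.7 CPM in Matrigel and 2.36, 2.55 and 1.53 CPM in suspension, and Egln3, an oxygen sensor, was 752, 747 and 734 CPM in Matrigel and 107, 108 and 107 CPM in suspension. Ero1a, an oxidoreductase of the endoplasmic reticulum, was among the genes with most counts in Matrigel, and it fell from 3896 CPM ± 27.8 (SD, n = 3) in Matrigel to 672 CPM ± 5.33. Glycolysis genes fell in 15 of 19 cases and rose in 4. Slc16a3, the lactate exporter, fell from 174 CPM ± 2.48 to 26.6 CPM ± 1.84.

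Sterol synthesis moved the other way, with 18 of 23 genes up, 5 beyond 2-fold, and 2 down, at a median log2 fold change of 0.67. Insig1, a sterol sensor and feedback target, was 109, 108 and 108 CPM in Matrigel and 303, 306 and 304 CPM in suspension. Genes of the primary cilium rose in 14 of 20 cases, 6 beyond 2-fold, and fell in 4, and the transport gene Ift57 was 3.71, 3.25 and 3.58 CPM in Matrigel and 41.2, 39.7 and 42.8 CPM in suspension. Subunits of oxidative phosphorylation encoded in the nucleus kept close to Matrigel, with 13 of 27 up, 8 down and none beyond 2-fold. Of 13 tested subunits encoded in mitochondria, 7 fell, 4 rose and 2 were not called, with a median log2 fold change of -0.13. Only 1 of them, mt-Co1, changed beyond 2-fold. The mitochondrial gene mt-Co1 fell from 8650.1 CPM ± 80.2 (SD, n = 3) in Matrigel to 3641 CPM ± 34.7, and mt-Nd1 rose from 1189.8 CPM ± 11.7 to 1271 CPM ± 11.95.

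Markers of other cell types that a prostate culture could hold were measured in both groups, and their part in the results above was not tested. The endothelial markers Vwf and Pecam1, the 2 of that list in the table, rose, from 0.977 CPM ± 0.255 (SD, n = 3) in Matrigel to 25.4 CPM ± 1.55 and from 0.311 CPM ± 0.0861 to 12.8 CPM ± 0.262; their summed level was 1.09 to 1.45 CPM in Matrigel and 37.1 to 39.7 CPM in suspension. The fibroblast marker Dcn, the 1 marker of that list in the table, fell from 11.1 CPM ± 0.714 to 0.00904 CPM ± 0.0157. The immune markers Cd68 and Cd14, the 2 of 9 listed that are in the table, fell from 90.9 CPM ± 2.35 to 3.42 CPM ± 0.481 and from 65.3 CPM ± 2.70 to 17.2 CPM ± 0.828. For smooth muscle, Smtn fell from 111.9 CPM ± 7.30 to 27.9 CPM ± 1.86, while the defining marker Acta2 was at 0.0700 and 0.00904 CPM.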

How the data were processed

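The 6 libraries hold polyA RNA of mouse prostate organoids. The authors deposited expected counts, which are estimated counts of reads for each gene, on mm10 per the submitters' processing notes. The aligner, counting program, strand setting and annotation were not found in the labels or file headers. Between 44.6% and 48.5% of a library's values were not whole within 0.01, and all were rounded. Of 16919 lines, 10 without a gene name (at most 0.00371% of a library) were left out, and 15 names with several lines were summed.

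A quasi-likelihood model was fitted in edgeR 4.0.16 under R 4.3.3, with TMM factors and filterByExpr (minimum 10 counts), 2-sided, with Benjamini-Hochberg adjustment over the 15733 genes tested; glmTreat gave calls beyond 2-fold. The common biological coefficient of variation was 3.63%, so small changes pass with 3 libraries a group. The fit was also run on simulated data with 200 changed genes, as many raised as lowered. That run does not cover data in which most genes differ, so it cannot give error rates here. A ± after a mean CPM is the SD and after a log2 fold change the SE. Where a group has 0 counts, the fold is a bound against 3 counts over the group, which covers counting error only.

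The comparison, the gene lists and the key genes were chosen with earlier results of these data known. Named genes are the key genes; of each list, up to 5 called members with the largest change at an average log2 CPM of at least 1, and members that moved against the majority; the 15 genes highest and 15 lowest by log2 fold change at an average log2 CPM of at least 3, with groups that do not overlap; the 10 genes with the most counts in each group; and all members of families of 12 or fewer. The text names 212 genes, of which 29 fall outside that rule and were chosen after their values were seen: Agrn, Ajuba, Areg, Axin2, Cd44, Cplx2, Elavl3, Elavl4, Ezh2, F3, Fermt1, Gadd45b, H2-D1, H2-K1, Hes6, Hoxa13, Hoxd10, Hoxd9, Id1, Id3, Igfbp3, Itgb1, Kitl, Krt15, Lin28b, Nid1, Sprr1a, Tfap2c and Tgfbr2. Each list is described by its counts and median, with no test of the list. Over all genes tested, 38.3% rose and 38.9% fell, and beyond 2-fold 7.14% rose and 13.3% fell. List counts near these shares say nothing particular about the members. Some members are not reported here. Coordinates and exon lengths come from the GENCODE annotation of the same build, and promoter sequences from RefSeq. Reads of a gene and its antisense partner cannot be told apart without a known strand. Alternatives were other scalings and filters, shared gene names kept apart, DESeq2 1.42.0, a replicate block and leaving out each library.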

Additional observations from a re-analysis of the deposited data

How the results depend on the processing

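The 4 counts over all genes stayed within 1.5 times of their values under all 13 alternatives tried. Leaving out each library in turn gave 5741 to 5938 genes that rose, 5929 to 6122 that fell, 1043 to 1118 that rose beyond 2-fold and 2042 to 2119 that fell beyond 2-fold. DESeq2 gave 5783, 6003, 886 and 1855 in the same order. Of the calls, 49.6% were increases, and 48.7% to 53.2% under the alternatives, the highest with library totals in place of TMM factors. Replicates with the same number in both groups did not deviate together (correlations of 0.0032, -0.060 and -0.096). With 3 libraries a group, such values cannot decide whether the libraries were paired by design. A replicate block gave 5876, 5975, 1082 and 2055 in the same order.

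Of 170 named genes called beyond 2-fold, 167 kept that call under every alternative that tested them, the exceptions being Itgb8, Ltf and Tgm3, which lost it in DESeq2 (adjusted p = 0.344, 0.139 and 0.103). Gadd45b, not called, changed sign with library totals, to a log2 fold change of 0.0073. Pkp2, with an adjusted p of 0.0575, passed under 6 alternatives at 0.0165 to 0.0405. The calls of Dtx1 and Hoxa13 were lost under 9 and 3 alternatives; the cause was not tested. Genes at fractions of a CPM, such as Dtx1, rest on few counts at these library totals, which limits them.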
